A study of Mus musculus with 9 samples.

Results

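The genes of the major histocompatibility complex (MHC) class II pathway were followed in the brain cortex of 3 inbred mouse strains: B6 (C57BL6/J), C3H (C3H/HeJ) and WSB (WSB/EiJ). The members were listed by gene name: the α and β chain genes H2-Aa, H2-Ab1, H2-Ea-ps and H2-Eb1, the peptide editor genes H2-DMa and H2-DMb1, the invariant chain gene Cd74 and the regulator gene Ciita, which are 8 of the 54532 genes in the table. No row was named H2-Ea. Each strain gave 3 untreated male mice aged 8 to 12 weeks, with 1 library of bulk tissue per mouse. The mouse reference genome was made from B6, WSB is derived from wild mice, and C3H/HeJ is known to carry a defective Tlr4 allele.

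MHC class II molecules are dimers of an α and a β chain that show peptides from endosomes to CD4+ T cells. In the mouse the A molecule is made from H2-Aa and H2-Ab1 and the E molecule from H2-Ea and H2-Eb1. The invariant chain, the product of Cd74, guards the groove of a new dimer, and the DM dimer of H2-DMa and H2-DMb1 then helps to exchange the last piece of it for a peptide. CIITA binds no DNA itself but acts through RFX, CREB and NF-Y proteins that sit on the X and Y boxes in front of these genes. In a resting brain, class II proteins are known mainly from macrophages of the brain borders and from the few dendritic and B cells there, and microglia carry little until they are activated.

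In the H2b haplotype of B6 the gene of the E α chain is known to lack its promoter and first exon, and the reference annotation therefore lists it as an unprocessed pseudogene, H2-Ea-ps. Its row in the table spanned chr17:34342933-34344643 on the minus strand and was 686 bases long. The reference model (GRCm38) holds 3 exons of 247, 282 and 158 bases. The first of these is printed here from the annotated transcript because it is coding sequence that the B6 genome keeps. Capitals mark the 17 codons of the E α peptide that the Y-Ae antibody recognises when the A molecule of the H2b haplotype presents it.
H2-Ea-ps, chr17:34344398-34344644, minus strand: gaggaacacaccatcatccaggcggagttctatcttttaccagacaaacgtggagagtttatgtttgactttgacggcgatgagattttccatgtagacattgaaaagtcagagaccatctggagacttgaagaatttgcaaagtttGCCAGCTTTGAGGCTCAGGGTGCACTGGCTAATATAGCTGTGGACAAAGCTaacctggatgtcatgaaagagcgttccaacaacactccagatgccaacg

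RefSeq promoter windows (GRCm38.p6, 250 bases before to 50 bases after a start site) were held for H2-Aa, H2-Eb1, H2-DMb1 and H2-DMa, and not for H2-Ab1, H2-Ea-ps, Cd74 and Ciita. The 3 stretches below are shown because their genes had their highest levels in B6. Capitals mark the Y box core (ATTGG) and the X box core (AGNAACNGA), both searched on either strand.
H2-Aa, chr17:34287857-34287921, minus strand: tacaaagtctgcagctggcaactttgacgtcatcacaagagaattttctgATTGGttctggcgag
H2-Eb1, chr17:34305758-34305822, plus strand: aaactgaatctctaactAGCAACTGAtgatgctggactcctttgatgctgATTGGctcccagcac
H2-DMb1, chr17:34153080-34153144, plus strand: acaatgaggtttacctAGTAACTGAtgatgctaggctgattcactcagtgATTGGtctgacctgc
The Y box core lay 48 bases before the start site of H2-Aa, 59 bases before that of H2-Eb1 and 61 bases before that of H2-DMb1. The X box core preceded it by 24 bases in H2-Eb1 and by 25 bases in H2-DMb1, and these letters were not in the H2-Aa window. H2-Eb1 held another Y box core on the opposite strand 35 bases before its start, outside the printed stretch. Both H2-DMa windows lay far upstream of the gene start in the table, by 12350 and 9664 bases, and are not printed. Of all 32851 promoter windows, 37.4% held the Y box core, 5.35% the X box core and 1.98% both. A match is a description of the letters and not a binding site, and the reference has the B6 sequence only.

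Levels are given as FPKM (fragments counted on a gene, scaled to its length and to the depth of the library), and the number of reads behind a level was recovered from the table. Reads on genes numbered 17651630 to 21562429 per B6 library, 19042306 to 19433751 per C3H library and 16317439 to 17784118 per WSB library. The 8 members together took 455 to 726 of these reads per library, so most of the levels rest on few reads. The cortical neuron gene Slc17a7 stood at 238 to 388 FPKM in all 9 libraries, and the choroid plexus gene Ttr ranged from 61.7 to 749 FPKM, with both extremes in B6. No libraries of a strain were duplicates.

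The E α gene showed the plainest difference. H2-Ea-ps had no read in any of the 3 B6 mice. In C3H it was measured at 2.04, 1.50 and 1.13 FPKM, from 26, 20 and 15 reads, and in WSB at 1.05, 1.09 and 1.12 FPKM, from 12, 13 and 14 reads. Thus every C3H and every WSB mouse held the transcript, and no B6 mouse did at this depth. With B6 set to a floor of 3 reads in each library, a mean of 0.222 FPKM, the level was at least 7.01-fold higher in C3H and at least 4.90-fold higher in WSB. Floors cover counting error only. Both differences passed the limma test with adjustment over all genes tested (adjusted p = 0.000388 for C3H and 0.000452 for WSB). The defect of this gene in B6 was known beforehand, and the row reached the level needed for testing only through the other strain. These p-values therefore add no support beyond the reads themselves. Both calls were kept when any 1 mouse was left out, with adjusted p from 0.00215 to 0.00693. Between C3H (mean 1.56 ± 0.457 FPKM, SD, n = 3) and WSB (1.09 ± 0.0331) the groups lay next to each other without overlapping, with 1.13 FPKM the lowest in C3H and 1.12 the highest in WSB, and the test did not separate them (log2 difference WSB minus C3H -0.44, 95% interval -0.96 to 0.07, adjusted p = 0.268).

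H2-Eb1 (chr17:34305877-34316199, plus strand), which encodes the β chain that pairs with E α, ran the other way. It stood at 2.69, 3.01 and 2.77 FPKM in B6, at 1.41, 1.22 and 1.04 FPKM in C3H and at 0.46, 0 and 0.51 FPKM in WSB. The 3 strains formed 3 groups that did not overlap, B6 highest and WSB lowest. The second WSB mouse had no H2-Eb1 read, against 9 and 11 reads in the others of its strain. C3H was lower than B6 by a log2 difference of -1.15 ± 0.148 (SE, adjusted p = 0.0054), a call kept without any 1 mouse and lost when all 9 libraries shared 1 fit (adjusted p = 0.239). WSB was lower than B6 by -3.17 ± 0.648 (adjusted p = 0.0331). That call was lost without B6 mouse 1, 2 or 3 or WSB mouse 1 (adjusted p 0.0517 to 0.114), and the difference was -2.33 without WSB mouse 2. WSB and C3H differed by -2.02 (95% interval -3.57 to -0.47), which did not pass after adjustment (adjusted p = 0.127) and was -1.18 without WSB mouse 2.

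FPKM are per length, so the levels on the rows of the E chains were set side by side within a mouse. The level of H2-Ea-ps was 1.45, 1.23 and 1.08 times that of H2-Eb1 in the C3H mice, and 2.30 and 2.20 times in the WSB mice that had H2-Eb1 reads. In B6 the β chain transcript was present in each mouse without the α chain transcript. These ratios share their reads with the levels above and were not tested. They compare rows of the reference annotation, and how fully C3H and WSB alleles were aligned was not tested. The ratios therefore need not equal those of transcript number.

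**Figure D1:**
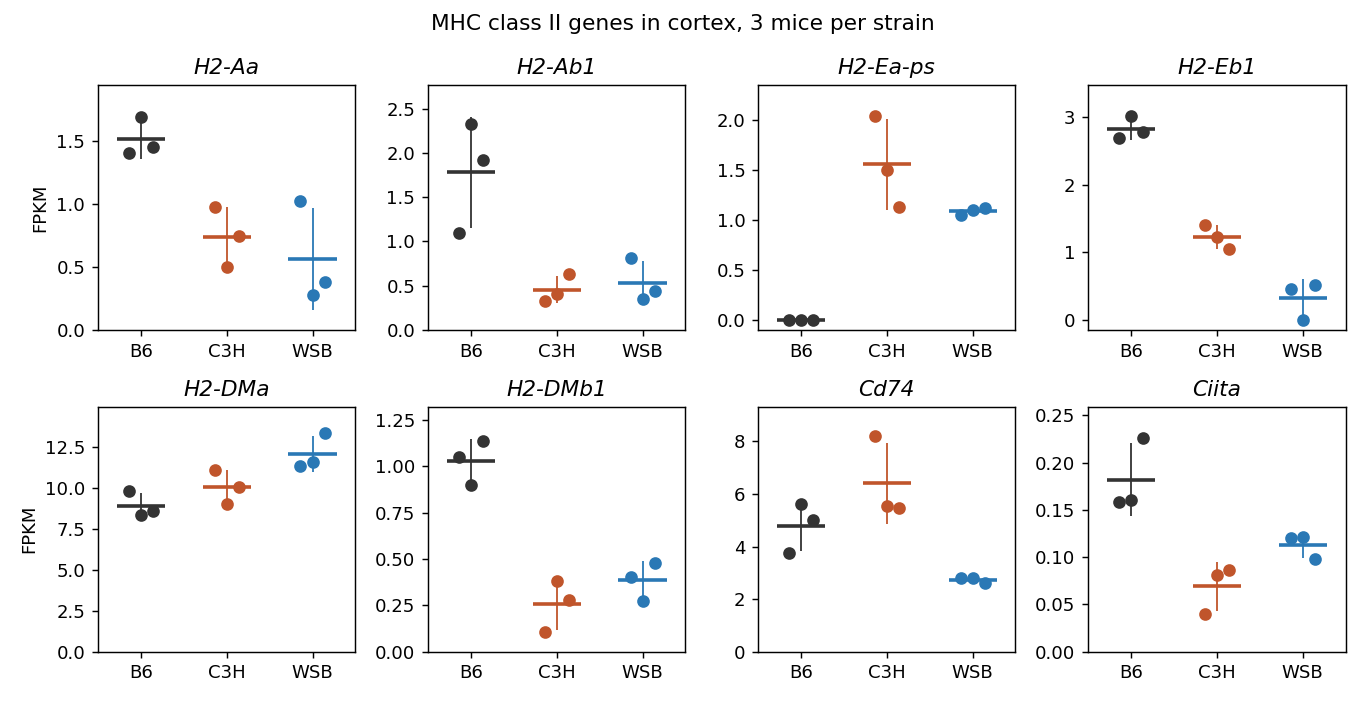
Levels of the 8 class II genes in each mouse. The y axes give FPKM on a linear scale that differs between panels, points are single mice, horizontal lines are means and vertical lines are ± SD over 3 mice. H2-Ea-ps lies at 0 in the 3 B6 mice and between 1.05 and 2.04 FPKM in the others, whereas H2-Aa, H2-Ab1, H2-Eb1, H2-DMb1 and Ciita lie higher in every B6 mouse than in any C3H or WSB mouse.

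Of the A chain genes, H2-Ab1 was called lower than in B6 in both other strains and H2-Aa in neither. H2-Ab1 (chr17:34263209-34269418, plus strand), the A β chain gene, measured 1.09, 2.33 and 1.92 FPKM in B6, 0.33, 0.41 and 0.63 FPKM in C3H, and 0.81, 0.35 and 0.43 FPKM in WSB. The lowest B6 mouse, with 32 reads, was above the highest C3H mouse, with 20 reads, and the highest WSB mouse, with 22 reads. It was lower than in B6 in C3H (log2 difference -1.73 ± 0.323, adjusted p = 0.0265) and in WSB (-1.58 ± 0.355, adjusted p = 0.0472). The C3H call was lost without B6 mouse 2, B6 mouse 3 or C3H mouse 1 (adjusted p 0.0956 to 0.103), and the WSB call without B6 mouse 2, B6 mouse 3, WSB mouse 2 or WSB mouse 3 (0.13 to 0.156). Between WSB and C3H the ranges overlapped (0.16, 95% interval -0.67 to 0.98, adjusted p = 0.822).

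H2-Aa (chr17:34282744-34287827, minus strand), the A α chain gene, measured 1.40, 1.69 and 1.45 FPKM in B6, 0.97, 0.50 and 0.74 FPKM in C3H, and 1.03, 0.28 and 0.38 FPKM in WSB. Again no C3H or WSB mouse reached the lowest B6 mouse, but neither difference passed after adjustment. C3H minus B6 was -0.98 ± 0.242 (adjusted p = 0.0683) and WSB minus B6 was -1.45 ± 0.393 (adjusted p = 0.0852). WSB mouse 1 stood apart from the other WSB mice, with 32 reads against 9 and 13. Without it the WSB difference was -1.92 and passed (adjusted p = 0.0089). The same mouse was also the highest of its strain for H2-Ab1.

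H2-DMb1 (chr17:34153072-34160230, plus strand), the DM β chain gene, stood at 1.05, 0.90 and 1.14 FPKM in B6, 0.11, 0.38 and 0.28 FPKM in C3H, and 0.40, 0.27 and 0.48 FPKM in WSB. The C3H levels rest on 3, 11 and 8 reads and the WSB levels on 10, 7 and 13. It was lower than in B6 in C3H (-1.74 ± 0.340, adjusted p = 0.0316) and in WSB (-1.24 ± 0.243, adjusted p = 0.0289). Its neighbour H2-DMb2 is a near copy, with 95.7% identity over 1081 of the 1404 bases of the H2-DMb1 transcript, so reads may be shared between them and the split is uncertain. The sum of both genes was 50, 35 and 42 reads in B6, 11, 19 and 18 in C3H and 32, 15 and 34 in WSB. For the sum, the C3H difference still passed and the WSB difference did not (-0.55, adjusted p = 0.381). Single mice also decided these calls. The C3H call was lost without B6 mouse 1, 2 or 3 or C3H mouse 3 (adjusted p 0.0857 to 0.111), and the WSB call without any mouse but WSB mouse 3 (0.0655 to 0.111).

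H2-DMa (chr17:34135182-34139101, plus strand), the DM α chain gene, was the most abundant member per length in every mouse. It measured 9.77, 8.33 and 8.55 FPKM in B6, 11.1, 9.03 and 10.02 FPKM in C3H, and 11.3, 11.5 and 13.3 FPKM in WSB. The order was B6, C3H and WSB, with B6 and C3H overlapping. WSB was higher than B6 by 0.44 ± 0.099 on the log2 scale, at the edge of the threshold (adjusted p = 0.0490). Leaving out any mouse but B6 mouse 1 ended that call (adjusted p 0.0847 to 0.164). Neither C3H minus B6 (0.17, adjusted p = 0.352) nor WSB minus C3H (0.26, adjusted p = 0.198) passed. The ratio of H2-DMa to H2-DMb1 within a mouse ranged between 7.52 and 9.28 in B6, between 23.6 and 102 in C3H, and between 27.8 and 42.4 in WSB, and the highest ratio, in C3H mouse 1, rests on 3 H2-DMb1 reads.

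Cd74, on chromosome 18 from 60803848 to 60812646 and thus outside the MHC, was the 1 member called between WSB and C3H after adjustment. It measured 3.76, 5.62 and 4.99 FPKM in B6, 8.19, 5.53 and 5.48 FPKM in C3H, and 2.81, 2.79 and 2.60 FPKM in WSB. All WSB mice were below all mice of the other strains, whereas B6 and C3H overlapped. WSB was lower than C3H by -1.17 ± 0.166 (adjusted p = 0.00861), which held without any 1 mouse (adjusted p 0.0136 to 0.0379). WSB was also lower than B6 (-0.77 ± 0.154, adjusted p = 0.0309), but this call was lost without any mouse but B6 mouse 1 (0.0816 to 0.109). C3H minus B6 was 0.40 (95% interval -0.07 to 0.87, adjusted p = 0.262). The level of Cd74 was 2.69 to 3.44 times that of H2-Aa over the B6 mice, 7.38 to 11.1 times over the C3H mice and 2.74 to 10.04 times over the WSB mice.

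Ciita, on chromosome 16 from 10480059 to 10528418, had the lowest mean per length of the members in C3H and WSB, and the lowest in B6 after H2-Ea-ps. It stood at 0.16, 0.16 and 0.23 FPKM in B6, 0.04, 0.08 and 0.09 FPKM in C3H, and 0.12, 0.12 and 0.10 FPKM in WSB. The 3 strains did not overlap, but at 7 to 46 reads per library neither C3H minus B6 (-0.74 ± 0.389, adjusted p = 0.283) nor WSB minus B6 (-0.40 ± 0.354, adjusted p = 0.588) passed. WSB and C3H were not compared because the mean of their libraries was under 0.1 FPKM. Ciita shares 25888 bases of its span with Dexi on the opposite strand, which had 760 to 1087 reads, and whether the counting used strand is not given in the sources used here.

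Over the members, WSB minus B6 gave 2 genes higher (H2-Ea-ps and H2-DMa) and 4 lower (Cd74, H2-Eb1, H2-Ab1 and H2-DMb1), where 2.81% of the 20746 genes tested were called higher and 3.09% lower. For all 8 members the WSB mice did not overlap the B6 mice, as was so for 26.0% of all genes. C3H minus B6 gave 1 member higher (H2-Ea-ps) and 3 lower (H2-Eb1, H2-Ab1 and H2-DMb1), beside 2.38% and 2.26% of 20602 genes. That background leaned on 1 library: 956 genes were called with all mice, 2301 without C3H mouse 2 and 498 to 569 without any other. There, 6 of 8 members did not overlap, beside 28.9% of all genes. WSB minus C3H gave 1 of 7 tested members, Cd74, lower and none higher, beside 3.13% lower and 2.61% higher of 20607 genes, and 4 of 7 did not overlap, beside 28.6%. The median log2 difference of the members was -1.0, -0.86 and -0.44 in these comparisons, beside medians of all genes of 0.002, -0.004 and 0.009. Placing H2-Ea-ps at its bound left the medians against B6 at -1.0 and -0.86. It stayed the highest member there, so the medians could not move and this shows nothing further. The counts against B6 include H2-Ea-ps, whose defect in B6 was known beforehand. C3H minus B6 and WSB minus B6 share the B6 mice and are not independent. In bulk tissue, fewer cells of a type and less RNA per cell cannot be told apart. Incomplete alignment of reads from C3H and WSB alleles to a reference made from B6 was not tested as a source of lower counts.

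The number of members called depended on single mice. In WSB minus B6, 6 members were called with all mice, 4 without B6 mouse 1, 1 without B6 mouse 2 or without B6 mouse 3, 3 without WSB mouse 1 or without WSB mouse 3, and 2 without WSB mouse 2. In C3H minus B6, 4 members were called with all mice, 2 without B6 mouse 2 or without B6 mouse 3, and 3 or 4 without any other. Over 11 other settings of the analysis, the WSB calls were lost in 6 for H2-DMa, 5 for H2-DMb1, 4 for H2-Ab1, 3 for H2-Eb1 and 1 for Cd74, and the C3H calls in 2 for H2-DMb1 and in 1 each for H2-Ab1 and H2-Eb1, with the direction kept in each. H2-DMb1 and H2-Ea-ps averaged under 1 FPKM over the libraries of each comparison with B6, a range in which calls were less reliable on simulated data.

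**Figure D2:**
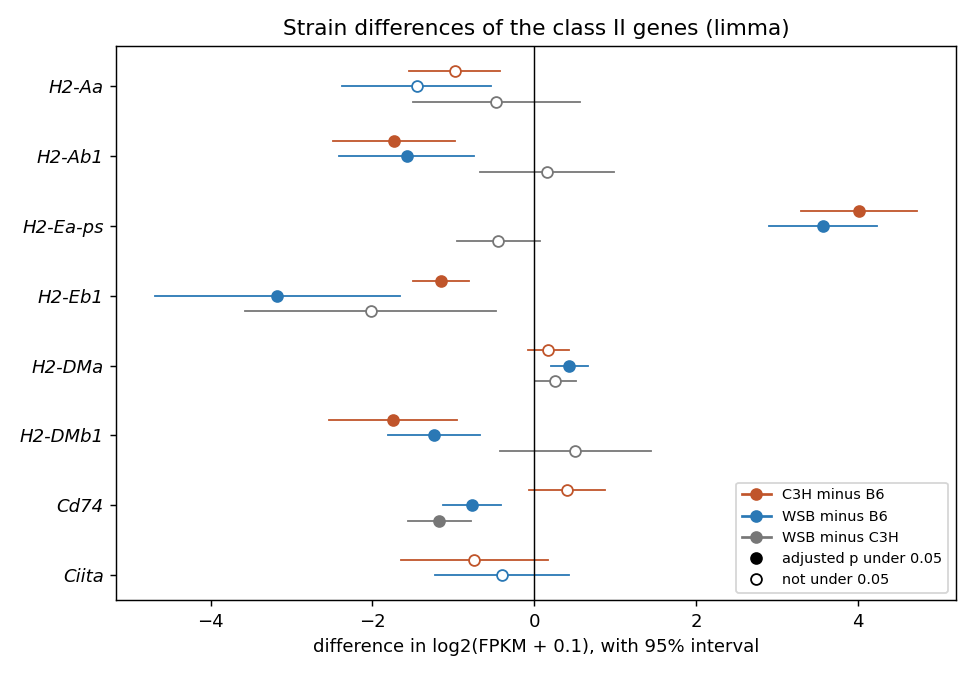
Differences between strains for each class II gene. The x axis gives the difference in log2(FPKM + 0.1) with its 95% interval from limma, and filled points have an adjusted p under 0.05. The fitted values of H2-Ea-ps against B6 depend on the added 0.1 because B6 had 0 reads, and Cd74 is the only filled point of WSB minus C3H, at -1.17.

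Among the other class II chain genes, H2-Eb2 had no read in any library, and H2-DMb2, H2-Oa and H2-Ob, the last being chains of the DO dimer that restrains DM, were at 0.0511 to 0.774 FPKM with none called in any comparison. Of the 10 neighbouring genes of the MHC, 9 were tested. In C3H minus B6, Brd2, which encodes a chromatin reader of acetylated histones, was higher (0.43, adjusted p = 0.0252) and the other 8 did not pass, beside the 2.38% of all genes called higher. In WSB minus B6 none of the 9 passed, and in WSB minus C3H Rnf5, a ubiquitin ligase gene, was lower (-0.44, adjusted p = 0.0289), beside 3.13% of all genes, and a count of 1 in 9 cannot be set apart from such shares. The class I peptide pathway genes Psmb9, Tap1, Psmb8 and Tap2, which lie between H2-DMb1 and H2-Ab1, were not called in any comparison. Psmb8 in WSB, at 0.66, 0.49 and 0.46 FPKM, was nonetheless below all B6 mice, at 1.04, 1.14 and 0.86 FPKM (-0.81, adjusted p = 0.0824).

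**Figure D3:**
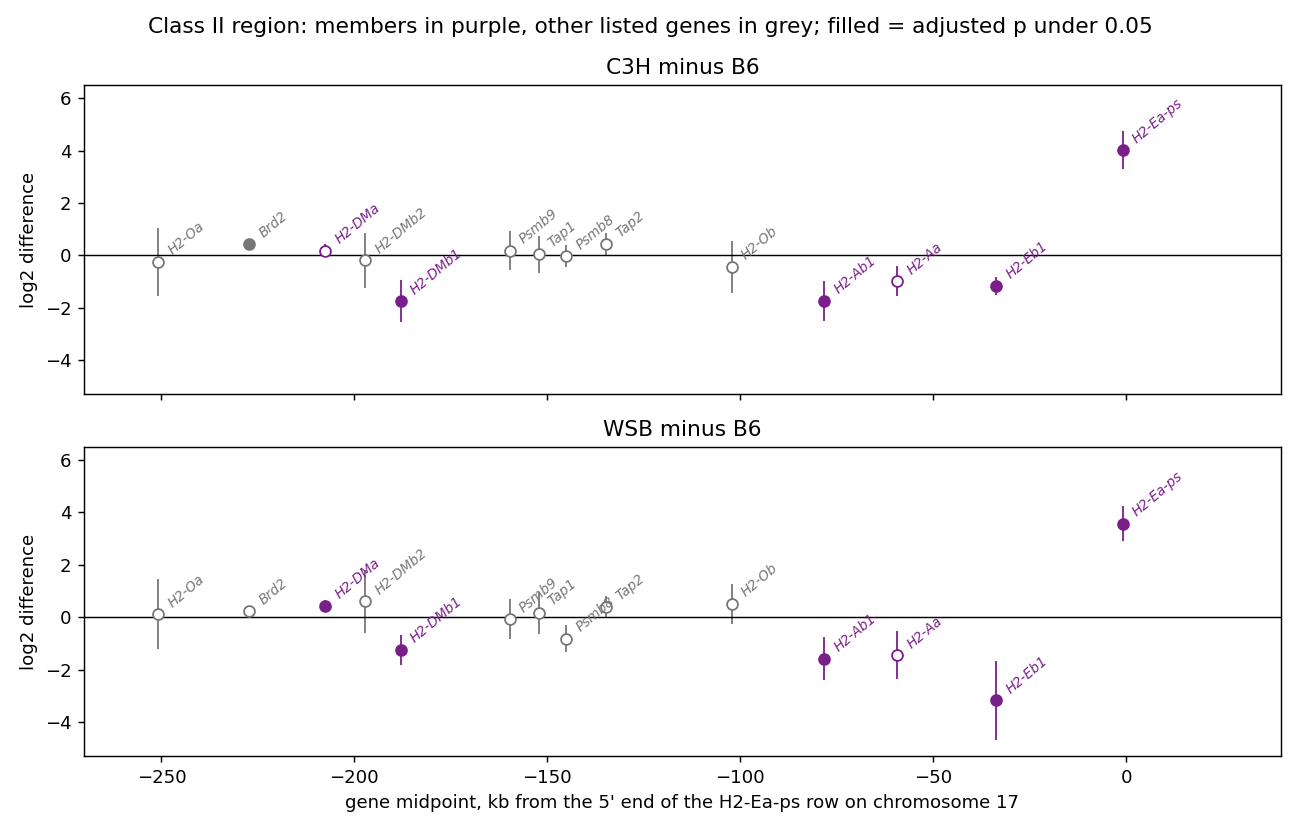
Differences from B6 along the class II region for the listed genes that were tested. Notch4, Ager, Rnf5 and Pbx2 lie beyond the right end of the x axis and are not drawn. The x axis gives the distance of a gene's midpoint from the 5′ end of the H2-Ea-ps row in kb, and the y axis the difference in log2(FPKM + 0.1) with its 95% interval. The members in purple lie both above and below 0, and Brd2 in C3H is the only grey point with an adjusted p under 0.05.

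Genes of proteins that act on class II promoters were Rfx5, Rfxap and Rfxank (the RFX subunits), Nfya, Nfyb and Nfyc (the NF-Y subunits) and Creb1. Limma called 0 of these 7 in each of the 3 comparisons. At an unadjusted p under 0.05 there were 1 (WSB minus B6), 3 (C3H minus B6) and 1 (WSB minus C3H). Over all genes tested by limma, 4235 of 20746, 4972 of 20602 and 4912 of 20607 had such a p, in that order. Of the 9 genes of class II processing and turnover that were tested, Ctss, which encodes the protease cathepsin S that trims the invariant chain, was lower in WSB than in B6 (-0.48, adjusted p = 0.0288). Its levels were 50.5, 40.6 and 41.5 FPKM in B6 and 32.2, 31.8 and 30.7 FPKM in WSB, with C3H between them at 36.5, 37.2 and 38.2 FPKM. March8, which encodes a ubiquitin ligase of membrane proteins, was lower in C3H than in B6 (-0.63, adjusted p = 0.0162), at 4.24, 5.09 and 4.21 FPKM against 7.22, 6.93 and 6.89 FPKM. March1, a ubiquitin ligase that removes class II molecules from the surface, was not called in any comparison. Together with the other class II chains, 1 of 19 tested genes passed in WSB minus B6 (Ctss). In C3H minus B6 it was 1 of 19 (March8), and in WSB minus C3H 0 of 19. Of all genes, 3.09%, 2.26% and 3.13% were called lower in that order, and 2.81%, 2.38% and 2.61% higher. The counts after adjustment are near these shares. At an unadjusted p under 0.05 limma gave 4, 10 and 6 of the 19 in that order, beside the counts of all genes given above. The 10 of 19 in C3H minus B6 was above the share of all genes. Of these, 7 were among the 9 processing and turnover genes. Ctsd, Ctsl and Ifi30 were higher and Ctss, March8, Sppl2a and March1 lower, and only March8 passed after adjustment. In that comparison 6 of the 9 did not overlap between strains, beside 28.9% of all genes. The list was not tested as a set. Voom weights gave 2 adjusted calls in WSB minus C3H. The Ctss call was lost without B6 mouse 2, B6 mouse 3 or any WSB mouse, and that of March8 without any B6 mouse, C3H mouse 1 or C3H mouse 3.

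Interferon gamma is the classic inducer of Ciita. Ifng had no read in any of the 9 libraries. Limma called none of the 9 tested genes of its signalling, receptors and targets (among them Ifngr1, Ifngr2, Irf1, Irf8 and Socs1) in any comparison. At an unadjusted p under 0.05 there were 1 or 2 of 9, not above the share of all genes in the same comparison. Cd4 and Lag3 encode receptors that bind class II on T cells, but which cells of the cortex held their transcripts was not tested. Cd4 ranged from 0.343 to 4.74 FPKM without a call. Lag3 was lower in WSB than in B6 (-0.67, adjusted p = 0.0428), at 2.48, 2.14 and 2.83 FPKM against 4.45, 3.45 and 4.12 FPKM. In that comparison 3.09% of all genes were called lower.

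Markers of cells that can carry class II moved partly with the strains. The summed level of 11 microglia markers ran from 210 to 220 FPKM over the B6 mice, from 195 to 231 over the C3H mice and from 173 to 187 over the WSB mice, so that WSB lay below both. In WSB minus B6, C1qb, Csf1r, Siglech and Trem2 were lower and the other 7 were not called, beside 3.09% of all genes called lower. In C3H minus B6, Aif1 was higher and C1qb lower, beside 2.38% and 2.26%. In WSB minus C3H, C1qa and Trem2 were lower, beside 3.13%. At an unadjusted p under 0.05 limma gave 7, 4 and 7 of the 11 in that order. Over all genes these were 4235 of 20746, 4972 of 20602 and 4912 of 20607. Strains did not overlap for 8, 4 and 7 of the 11, beside 26.0%, 28.9% and 28.6%. The list was not tested as a set. The 8 border macrophage markers summed to 7.43 to 8.90 FPKM (B6), 7.08 to 9.63 FPKM (C3H) and 5.36 to 5.88 FPKM (WSB). Limma called 0 of 8 in any comparison. At an unadjusted p under 0.05 there were 1 to 3, the 3 in WSB minus B6, where 4235 of all 20746 genes had such a p. The part of microglia and border macrophages in the lower Cd74 of WSB was not tested.

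The 9 dendritic cell markers summed to 3.51 to 4.30 FPKM (B6), 4.11 to 4.66 FPKM (C3H) and 3.75 to 4.54 FPKM (WSB), none of the 5 or 6 tested in a comparison was called, and Xcr1 and Ccr7 were at or near 0. The 7 B cell markers summed to 11.9 to 20.2 FPKM (B6), 3.94 to 4.94 FPKM (C3H) and 8.18 to 12.9 FPKM (WSB). Most of that sum was Ighm, the gene of the IgM heavy chain, which was lower in C3H than in B6 (-1.86, adjusted p = 0.00202) and higher in WSB than in C3H (1.24, adjusted p = 0.0127). Cd79b, a subunit of the B cell receptor, averaged 0.295 FPKM in B6, 0.109 in C3H and 0.0548 in WSB and was not called. Every B6 mouse lay above the other mice for Cd79b, but its reads were few: 8, 9 and 8 (B6), 2, 4 and 3 (C3H), 3, 0 and 1 (WSB). The listed marker Cd79a had more reads and differed less. Its means were 0.576 (B6), 0.479 (C3H) and 0.409 FPKM (WSB), the strains overlapped, and no comparison called it. Ms4a1, Cd22 and Pax5 were at or near 0 in every library. Over the mice of all strains the 7 T cell markers summed to between 10.9 and 29.3 FPKM, nearly all of it Trbc2, a T cell receptor constant region gene with 151 to 367 reads per library, while Cd3d and Cd3g had no read and Cd3e was at 0 in all but B6 mouse 2. Of these markers only Trac and Trbc2 were tested, and neither was called. The part of B cells in the lower chain genes of C3H and WSB was not tested.

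Blood and lining tissue were also compared, since both can be carried along in dissection. The 5 blood genes summed to 217 to 254 FPKM (B6), 632 to 1010 FPKM (C3H) and 249 to 329 FPKM (WSB). Hba-a1, Hbb-bs and Alas2 were higher in C3H than in B6 and than in WSB. Of all genes, 2.38% were called higher in C3H minus B6 and 3.13% lower in WSB minus C3H. In WSB minus B6 Hba-a1 was higher and Hbb-bt, one of several near-identical globin genes, lower, beside 2.81% and 3.09% of all genes. None of the 7 genes of the meninges and choroid plexus and none of the 6 genes of cortical neurons was called in any comparison. At an unadjusted p under 0.05, limma gave 4 of the 6 neuron genes in WSB minus C3H and 0 in the other comparisons. In WSB minus C3H, 3 of the 6 did not overlap between strains. Over all genes, that comparison gave 4912 of 20607 at such a p and 28.6% without overlap. For the meninges and choroid plexus the unadjusted counts were 0 or 1 of 7.

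**Figure D4:**
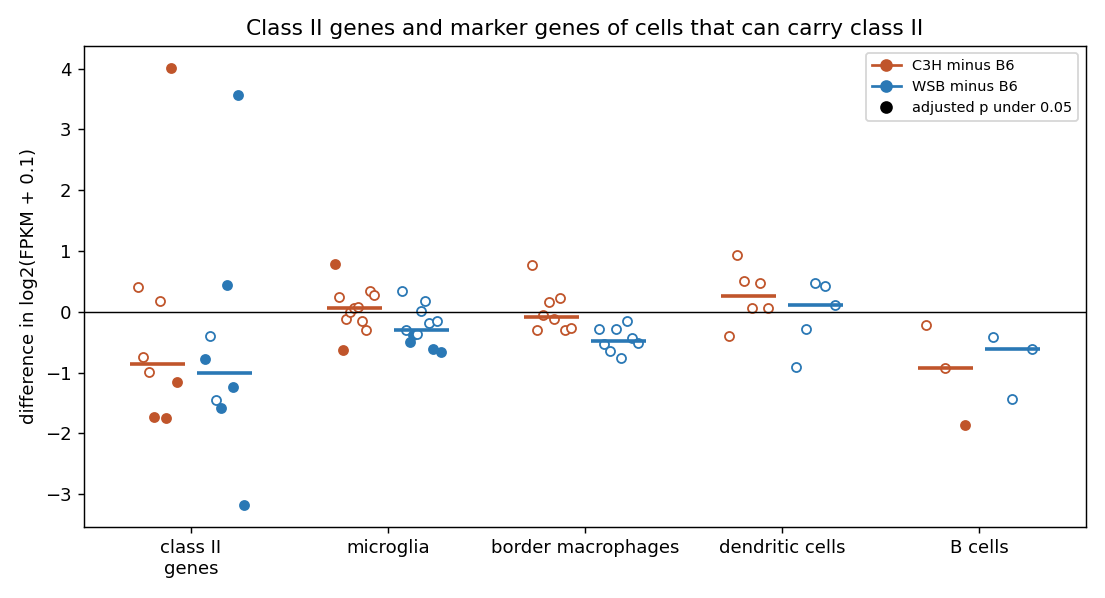
Differences from B6 for the class II genes and for markers of cells that can carry class II. The y axis gives the difference in log2(FPKM + 0.1), points are genes that were tested, filled where the adjusted p was under 0.05, and horizontal lines are list medians. The microglia and border macrophage medians of WSB lie at -0.30 and -0.48, whereas those of C3H lie at 0.06 and -0.09.

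Genes with a like profile over the 9 mice were sought for the mean of H2-Aa and H2-Ab1, and are not given for H2-Ea-ps, whose height over B6 is set by the added 0.1. Likeness was the root mean square difference between profiles of log2(FPKM + 0.1), each taken relative to its B6 mean. The closest of 20760 genes were Ell3 (0.26), Ptgfr (0.32), Slc5a5 (0.34), Gm17732 (0.36) and Cd79b (0.37). Slc5a5 averaged 6.85 FPKM in B6, 2.47 in C3H and 2.78 in WSB. Cd79b had at most 9 reads in a library. Likeness over 9 mice is a description with no test.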

How the data were processed

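RNA of frozen brain cortex was extracted, made into libraries and sequenced as 150 bp pairs by a company. The authors trimmed the reads with Cutadapt. The submitters' processing notes name STAR, HTSeq and DESeq2, with no version, and the build is not given in the sources used here. The authors deposited FPKM per gene for each of 9 libraries. 53499 of 54532 gene identifiers had the same coordinates in GENCODE M21 (GRCm38).

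FPKM times gene length came out as whole reads for 100% of values (tolerance 0.01 reads), which gave reads per gene. Strains were compared by limma 3.58.1 (R 4.3.3, trended variance, two-sided) on log2(FPKM + 0.1), keeping those genes whose average in the libraries compared was 0.1 FPKM or more, so log2 differences of low genes are understated. P-values were adjusted by Benjamini-Hochberg over all genes tested, threshold 0.05. As the deposited unit is FPKM, this took the place of the study's count test, and voom on the recovered reads was an alternative. The procedure was tested on simulated data, where calls under 1 FPKM were less reliable than the threshold states. The labels number the mice but name no litter or day. The p-values set strain differences against the spread between these mice. Whether litter or day differed between strains is not known, and such a difference could not be told apart from strain.

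The members and lists were chosen with earlier results of these data known. All members were named, and from other lists the genes called or bearing on detection. H2-DMb1 was aligned by blastn 2.17.0. How fully reads of C3H and WSB alleles were aligned was not tested.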

Additional observations from a re-analysis of the deposited data

Results flagged for a closer look

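The level of Cd74 relative to B6 differed between WSB and C3H, and the direct test of that difference passed: WSB minus C3H was -1.17 on the log2 scale (limma, adjusted p = 0.00861), with all 3 WSB mice below all 3 C3H mice. It was the 1 member among 7 tested for which this comparison passed. Groups of 3 mice are too small for a search for outlying mice.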

How the results depend on the processing

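H2-Ea-ps against B6 kept its call in both strains under each alternative that tested it and without any 1 mouse, and Cd74 kept its call in WSB minus C3H. For H2-Ea-ps no B6 library held a read, so the kept calls add no support. Of the members called in WSB minus B6 (6), 3 were called with a pseudocount of 0.01 and 2 with no filter. In C3H minus B6 (4), 2 were called with no filter and 2 with a filter of 1 FPKM, which drops members. H2-Eb1 in C3H minus B6 did not pass when all 9 libraries shared 1 fit (adjusted p = 0.239), and H2-Aa passed with voom weights in WSB minus B6 (0.0324) and, over protein-coding genes and members only, in both comparisons with B6 (0.0478 and 0.0375).

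Pathway genes called in WSB minus B6 (1) were 2 after rescaling to total reads, 2 with all 9 libraries in 1 fit and 3 with the GC trend removed, a setting chosen after seeing the data, as was summing H2-DMb1 and H2-DMb2. In C3H minus B6 (1) there were 2 with a filter of 1 FPKM, total-read rescaling, voom weights or the GC trend removed, and 3 with all 9 libraries. In WSB minus C3H (0) there were 2 with all 9 libraries, 2 with voom weights and 1 with the GC trend removed. The cause was not tested.

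Leaving out 1 mouse gave 1 to 4 members and 0 to 1 pathway genes in WSB minus B6, 2 to 4 and 0 to 6 in C3H minus B6, and 1 and 0 to 4 in WSB minus C3H, with 6 and 4 both without C3H mouse 2. H2-Ab1 in WSB minus C3H, not called, ranged from -0.14 to 0.37 and was -0.02 without C3H mouse 1 and -0.14 without WSB mouse 1. With the replicate number as a block, 1 member was called in WSB minus B6, H2-Ea-ps, and 0 pathway genes in C3H minus B6. Deviations of mice with the same number correlated at -0.157 to 0.037, so the numbers were not taken as pairs.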
